A study of Mus musculus with 6 samples.

Results

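The 44 genes described here are interferon-stimulated genes of the mouse, chosen by gene symbol: 30 of a type I arm, which type I interferons induce strongly, and 14 of a gamma arm, whose classical inducer is interferon gamma. They were picked from the 55291 genes of the count table, and all 44 were among the 18621 genes with enough counts to be tested. The libraries are bulk RNA-seq of tumours that the mouse glioma line CT2A formed under the skin, and fall into 2 groups: 3 tumours with the genotype Siglece KO and 3 with the genotype WT. Siglece encodes Siglec-E, an inhibitory receptor for sialic acids on mouse myeloid cells, and the comparison asks how tumours without it differ from tumours with it. The labels give no treatment, time, age, sex or mouse strain, and do not say whether the host, the implanted cells or both carry the genotype. Per the labels' protocols, each sample held 5000 to 20000 CT2A cells and was processed with Smart-seq2, which amplifies full-length cDNA. No sort or gate is named, and markers of macrophages and fibroblasts were abundant in all 6 libraries, so the levels below cannot be assigned to CT2A cells alone.

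Interferons are secreted signals of antiviral and antitumour defence. Type I interferons bind a receptor of the chains IFNAR1 and IFNAR2, and the kinases JAK1 and TYK2 then activate a complex that holds STAT2 and IRF9 and binds a DNA element called the interferon-stimulated response element (ISRE). Interferon gamma, made chiefly by T cells and NK cells, binds IFNGR1 and IFNGR2 and signals through JAK1 and JAK2 to a DNA element called the gamma-activated site (GAS). The arms overlap, since IRF1 acts in both, and most genes of either arm respond to some degree to the other interferon. Tumour cells, macrophages and other stromal cells can all express these genes.

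Promoters are shown first, because the signals of both interferons act on elements there. The arms themselves were set by gene symbol, not by these sequences. RefSeq windows on GRCm38.p6, from 250 bases before to 50 bases after a start site, were found for 32 of the 44 genes (21 of the type I arm and 11 of the gamma arm, 39 windows in all). Each window was searched on both strands for an ISRE core, GAAANNGAAA, and a GAS core, TTCNNNGAA; copies of the ISRE core may overlap each other. An ISRE core stood in 12 of 26 type I windows (46.2%) and 10 of 13 gamma windows (76.9%), beside 3.44% of all 32851 windows. A GAS core stood in 4 of 26 type I windows and 7 of 13 gamma windows, beside 8.3% of all windows. Both cores occurred together in 2 type I windows and 6 gamma windows, beside 0.454% of all windows. Neither core was found in 12 of 26 type I windows and 2 of 13 gamma windows, beside 88.7% of all windows. A match describes letters in a window and shows neither binding nor use.

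4 windows are printed as examples, each read 5′ to 3′ on the strand of its gene with the cores in capitals. They do not stand for the arms. Of 21 type I genes with a window, 9 had an ISRE core only, 2 a GAS core only, 2 both and 8 neither. Of 11 gamma genes, 4 had an ISRE core only, 1 a GAS core only and 6 both. No window without a core is printed. Isg15 carries 3 overlapping ISRE cores, the nearest 66 bases before the start site, and Ifit1 carries 2 on the opposite strand. Irf1, which encodes the transcription factor IRF1, carries a GAS core 90 bases before the start and no ISRE core. Igtp, which encodes an immunity-related GTPase, carries both.

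Isg15 chr4:156200769-156201068 (-): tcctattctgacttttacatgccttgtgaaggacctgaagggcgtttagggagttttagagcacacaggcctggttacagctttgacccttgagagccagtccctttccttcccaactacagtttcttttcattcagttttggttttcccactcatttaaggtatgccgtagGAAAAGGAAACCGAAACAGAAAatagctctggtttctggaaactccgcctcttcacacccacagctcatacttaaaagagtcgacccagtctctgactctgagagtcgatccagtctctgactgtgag

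Ifit1 chr19:34640639-34640938 (+): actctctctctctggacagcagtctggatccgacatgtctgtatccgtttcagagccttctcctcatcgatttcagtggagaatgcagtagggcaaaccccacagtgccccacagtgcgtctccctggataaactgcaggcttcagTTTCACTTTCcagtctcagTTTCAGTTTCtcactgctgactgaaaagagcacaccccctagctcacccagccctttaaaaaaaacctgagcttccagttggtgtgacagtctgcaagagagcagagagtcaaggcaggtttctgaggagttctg

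Irf1 chr11:53769764-53770063 (+): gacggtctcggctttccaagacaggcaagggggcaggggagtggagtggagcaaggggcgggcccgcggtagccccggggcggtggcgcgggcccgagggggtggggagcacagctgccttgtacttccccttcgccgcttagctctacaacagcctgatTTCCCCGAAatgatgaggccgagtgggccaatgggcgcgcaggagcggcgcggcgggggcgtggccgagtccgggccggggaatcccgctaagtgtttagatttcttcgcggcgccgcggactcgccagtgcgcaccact

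Igtp chr11:58199306-58199605 (+): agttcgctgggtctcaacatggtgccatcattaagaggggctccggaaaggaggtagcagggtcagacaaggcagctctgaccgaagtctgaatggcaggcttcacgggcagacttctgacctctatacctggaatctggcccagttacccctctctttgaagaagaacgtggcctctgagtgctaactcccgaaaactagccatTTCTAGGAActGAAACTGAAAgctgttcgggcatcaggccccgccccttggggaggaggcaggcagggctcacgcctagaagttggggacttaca

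In 4 genes of the immunity-related GTPase family the 2 cores follow each other with the same spacing, while the window of Irgm1, of the same family, held 2 ISRE cores and no GAS core. The joined pattern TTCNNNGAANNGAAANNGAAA, a GAS core followed by an ISRE core, occurred in 5 of all 32851 windows (0.0152%), and 4 of those 5 belonged to members of the gamma arm: Tgtp1, Tgtp2, Igtp and Irgm2. It was chosen as a pattern after these sequences were seen. The 4 genes are of 1 family and their blocks share the same 8 bases before the GAS core, so they are not 4 independent occurrences. Each block below has 8 further bases on both sides, and the GAS and ISRE cores are in capitals.

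Tgtp1 chr11:48992306-48992342 (-): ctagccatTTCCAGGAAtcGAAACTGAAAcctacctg

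Tgtp2 chr11:49064265-49064301 (-): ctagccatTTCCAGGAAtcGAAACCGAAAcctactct

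Igtp chr11:58199503-58199539 (+): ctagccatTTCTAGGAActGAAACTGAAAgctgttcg

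Irgm2 chr11:58214894-58214930 (+): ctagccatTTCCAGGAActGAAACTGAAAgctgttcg

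The libraries of the KO group differed from each other, which bears on every value that follows. Library totals ran from 24369359 to 40574093 counts, and levels are CPM, counts relative to the library size after scaling by the TMM method. Siglece, the targeted gene, was counted 0, 8 and 0 times across KO replicates 1 to 3 and 74, 99 and 64 times across WT replicates 1 to 3 (log2 fold change -4.66, SE 1.15, adjusted p = 0.0409), and it missed the threshold in each fit without 1 library except that without KO replicate 2. The summed level of 12 macrophage markers was 12313, 3482 and 14108 CPM in the KO libraries and 1543 to 2481 CPM in the WT libraries, and 9 of the 12 were higher in KO. Of 12 T cell markers 10 were higher, with sums of 265 to 859 CPM in KO and 97.0 to 161 CPM in WT, and of 9 fibroblast markers all 9 were higher, with sums of 14009 to 42212 CPM in KO and 2798 to 4319 CPM in WT. The 12 glioma and neural markers summed to 1588, 3668 and 1725 CPM in the KO libraries and 4494 to 6119 CPM in the WT libraries, with 1 called higher and 3 lower. Of 2 astrocyte markers, Gfap was at 0 in KO replicate 3, and Aqp4 in KO replicate 2 and in WT replicates 2 and 3. Sox2, a neural stem cell factor, was at 18.6, 147 and 4.74 CPM in KO against 205, 228 and 227 CPM in WT. It was not called (log2 fold change -1.95, SE 1.03, adjusted p = 0.219). Sox9 was the marker called higher (2.96, SE 0.77, adjusted p = 0.0479), and Slc1a3, Cspg5 and Cntn1 were those called lower. KO replicate 2 was thus nearer to the WT libraries in these sums than KO replicates 1 and 3 were. KO replicates 1 and 3 were not alike in every list. The 9 fat and skeletal muscle markers summed to 914, 300 and 2808 CPM in the KO libraries and 86.7 to 209 CPM in the WT libraries, with 5 called higher. Of the fat markers Fabp4 was called, while Adipoq, Plin1 and Cidec were not. In KO replicate 1 Adipoq and Cidec were inside the WT range, at 0.272 and 0.238 CPM, and Plin1 was below it, at 0.238 CPM. For the 9 neutrophil markers, KO replicates 1 to 3 had sums of 186, 75.8 and 312 CPM, against a WT range of 17.0 to 21.2 CPM. Most of the sum of KO replicate 1 was Csf3r, at 146 CPM, followed by Mmp9, at 35.3 CPM. Csf3r, Mmp9, Mmp8 and Retnlg were above the WT range in every KO library. The rest of the list did not share that order. In KO replicate 1 S100a8 was below the WT range, at 0.238 CPM, while S100a9 and Cxcr2 were inside it, each at 0.102 CPM. KO replicate 3 had S100a8, S100a9 and Cxcr2 at 36.1, 42.1 and 11.8 CPM. The part of this composition in the values below was not tested, and in bulk tissue fewer cells of a type and less RNA per cell cannot be told apart.

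Between the genotypes, 0 of the 44 interferon-stimulated genes passed the threshold, an adjusted p of 0.05 in edgeR's quasi-likelihood test over all genes. Among all genes tested 11.2% were called higher in KO and 0.226% lower. At an unadjusted p under 0.05 the count was also 0 of 44, where 31.8% of all genes tested stood. DESeq2, which called 15.8% of all genes higher and 5.07% lower, and limma-voom, which called 5.31% and 0.166%, also called 0 of 44. At an unadjusted p under 0.05 they had 2 and 1 type I members lower. The 95% interval of the fold change included 0 for every one of the 44 genes, and these intervals together spanned -2.91 to 2.35 on the log2 scale. The interval was wide, with a median half-width of 1.31 in the type I arm and 1.47 in the gamma arm, beside 1.03 over all genes tested.

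Most members of either arm had a log2 fold change below 0. The type I arm had a median log2 fold change of -0.20, with 11 genes above 0 and 19 below. In the gamma arm the median was -0.54, with 1 gene above 0 and 13 below. The median over all genes tested was -0.045. Both medians depended on KO replicate 3: without it they were 0.24 (19 above, 11 below) in the type I arm and -0.10 (4 above, 10 below) in the gamma arm. Without KO replicate 1 they were -0.49 and -0.58, and without KO replicate 2 they were -0.55 and -1.17. With all libraries, limma-voom gave -0.55 and -0.95, and limma-voom with quality weights -0.16 and -0.92. Of the 6 fits without 1 library, members passed the threshold in that without KO replicate 2, which called 22.7% of all genes higher and 18.5% lower: Herc6 and Cmpk2 of the type I arm and Gbp2, Gbp3, Irgm1 and Igtp of the gamma arm, all lower in KO.

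**Figure D1:**
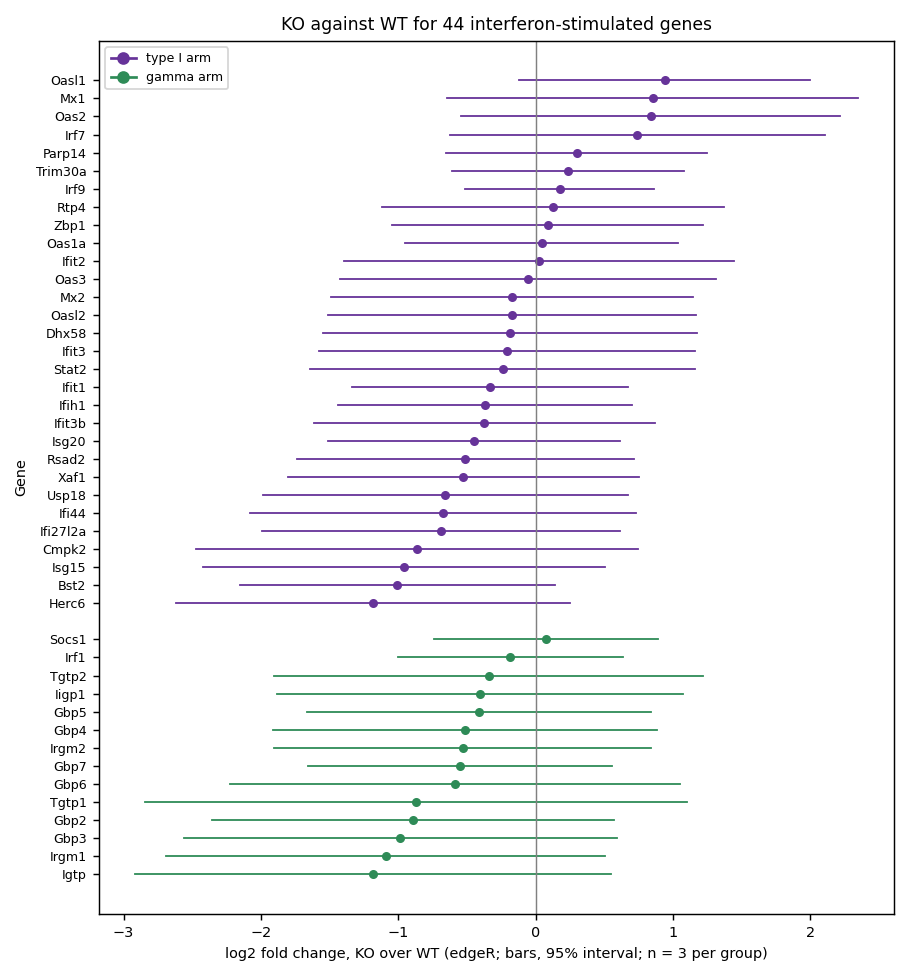
Log2 fold change of KO over WT for each of the 44 genes (horizontal axis), with its 95% interval as a bar, from edgeR with 3 libraries per group; type I genes in purple and gamma genes in green. Every bar crosses 0, and 13 of the 14 gamma points lie below it.

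The members were then placed library by library. KO replicate 3 was the lowest of the 6 libraries for 44 of the 44 genes, under TMM scaling, under RLE scaling and with no composition scaling, while it was the lowest for 29.5% of all genes tested. It was below every WT library for all 44, beside 41.7% of all genes tested, and above for none, beside 39.6%. Its median level was 0.231 of the WT mean in the type I arm, with a range over genes of 0.114 to 0.771. In the gamma arm the median was 0.156 of the WT mean, with a range of 0.0470 to 0.637. The median over all genes tested was 0.940 of the WT mean in the same library.

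KO replicate 1 gave different counts in the 2 arms. Of the 30 type I genes 15 were above every WT library in it, 7 were below every WT library and 8 were inside the WT range. Of the 14 gamma genes none was above, 11 were below and 3 were inside. Over all genes tested 39.5% were above and 40.0% below every WT library in this sample. With RLE scaling 14 type I genes were above and 9 below, and 11 gamma genes were below. With no composition scaling 14 type I genes were above and 10 below, and 8 gamma genes were below. All genes tested then gave 6728 above and 7867 below of 18621. The median member stood at 1.15 times the WT mean in the type I arm and 0.711 times in the gamma arm.

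KO replicate 2 had medians of 1.21 times the WT mean in the type I arm and 1.12 times in the gamma arm. It was above every WT library for 19 of 30 type I and 7 of 14 gamma genes, beside 31.5% of all genes tested. It was below for 2 and 0, beside 26.6%. With RLE scaling these counts were 15 and 5 above, 4 and 2 below. Both KO replicates 1 and 2 exceeded every WT library for 14 type I genes, among them Ifit2, Mx1, Oas2, Oasl1 and Irf7, and for none of the gamma arm, where 28.2% of all genes tested did so. The 15 type I genes with KO replicate 1 above and KO replicate 3 below every WT library are to be read beside 2.92% of all genes tested. The summed level of the type I arm was 5837, 5868 and 1596 CPM across KO replicates 1 to 3 and 4876 to 6574 CPM in the WT libraries. Of these sums Bst2 alone made up 626, 852 and 395 CPM in the KO libraries. Across WT replicates 1 to 3 it made up 2042, 871 and 849 CPM. The summed level of the gamma arm was 2672, 5179.5 and 799 CPM in the KO libraries and 4466 to 5300.1 CPM in the WT libraries.

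**Figure D2:**
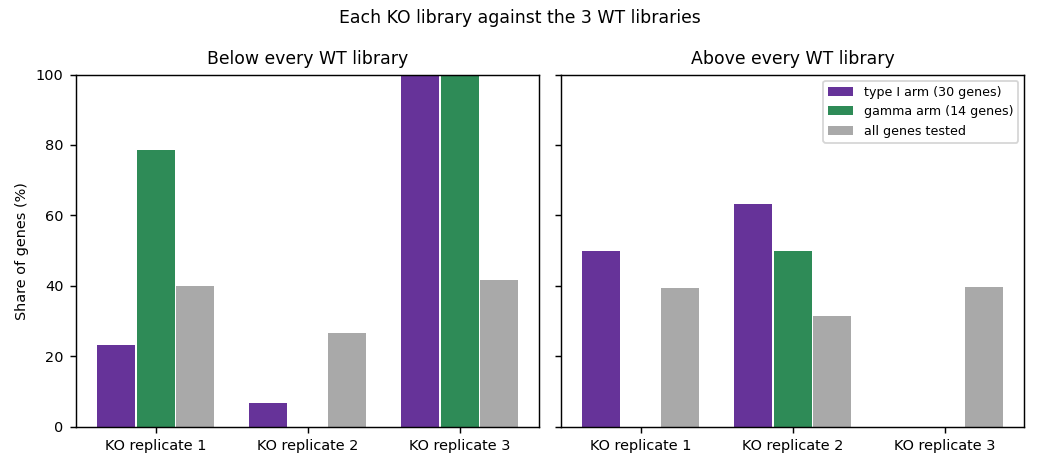
Share of genes (vertical axis, percent) that lay below every WT library (left) or above every WT library (right) in each KO library, for the type I arm, the gamma arm and all genes tested. In KO replicate 3 the bars of both arms reach 100% on the left, and in KO replicate 1, 15 of 30 type I genes stand above and 11 of 14 gamma genes below.

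Among the regulators of the type I arm, Irf7 (ENSMUSG00000025498.15, chromosome 7, 141262706 to 141266481, minus strand) was among the most abundant members per length, at 90.1 RPKM over the 6 libraries (CPM per kilobase of merged exons). It encodes IRF7, the transcription factor that amplifies type I interferon production. Its level was 762, 392 and 122 CPM across KO replicates 1 to 3 and 306, 227 and 231 CPM across WT replicates 1 to 3. KO replicate 1 was the highest of the 6 libraries and KO replicate 3 the lowest, so the groups overlapped (log2 fold change 0.74, SE 0.59, adjusted p = 0.397). With quality weights, which give each library its own weight in limma-voom and called 29.7% of all genes higher and 25.5% lower, it passed the threshold (1.11, adjusted p = 0.0389), whereas adjusted p ran from 0.0389 to 0.980 over all alternatives. Without KO replicate 3 its log2 fold change was 1.15, adjusted p = 0.147.

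The factors that carry the type I signal to DNA, and the inhibitor Usp18, overlapped between genotypes. Irf9, the DNA-binding subunit of the complex with STAT2, stood at 136, 117 and 72.1 CPM across KO replicates 1 to 3 and 91.9, 104 and 93.2 CPM across WT replicates 1 to 3 (log2 fold change 0.17, SE 0.30), a KO range that enclosed the WT range. Stat2 was at 335, 407 and 63.2 CPM in the KO libraries and 256, 363 and 333 CPM in the WT libraries, with only KO replicate 3 far from the others (log2 fold change -0.24, SE 0.60). Usp18, a protease that removes ISG15 and also blocks signalling at IFNAR2, had 93.7, 141 and 22.1 CPM in the KO libraries and 154, 129 and 121 CPM in the WT libraries (log2 fold change -0.66, SE 0.57). Here KO replicate 1 was below the WT libraries as well as KO replicate 3, and KO replicate 2 was inside their range.

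The genes of the ISG15 system, a ubiquitin-like tag attached to other proteins, included the only member whose groups did not overlap. Herc6 (ENSMUSG00000029798.11, chromosome 6, 57581000 to 57664632, plus strand) encodes the chief ligase that attaches ISG15 in the mouse. Its level was 79.3, 187 and 25.6 CPM across KO replicates 1 to 3 and 194, 232 and 239.7 CPM across WT replicates 1 to 3. All 3 KO libraries were below all 3 WT libraries, KO replicate 2 by a small margin (log2 fold change -1.19, SE 0.62, adjusted p = 0.216). One such gene of 44 compares with 44.1% of all genes tested whose groups did not overlap in either direction. In the fit with quality weights its log2 fold change was -1.74, adjusted p = 0.00113, with adjusted p from 0.00113 to 0.459 over the alternatives, and 13.7% of its exon bases also lie in exons of the gene model Gm45193.

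Isg15 (ENSMUSG00000035692.6, chromosome 4, 156199455 to 156200796, minus strand), the tag itself, had a mean of 255 RPKM and was at 143, 189 and 33.0 CPM across KO replicates 1 to 3 and 377, 171 and 162 CPM across WT replicates 1 to 3. WT replicate 1 was above every other library, KO replicates 1 and 3 were below every WT library, and KO replicate 2 lay inside the WT range (log2 fold change -0.96, SE 0.63, adjusted p = 0.309). WT replicate 1 was high for each of the 3 members with under 1000 bases of exons, Isg15, Bst2 and Ifi27l2a, at 1.56 to 1.63 times the WT mean, where the median of the other 41 was 0.990. The part of transcript length in these 3 values was not tested.

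Bst2 (ENSMUSG00000046718.8, chromosome 8, 71534255 to 71537456, minus strand) encodes tetherin, which holds budding virus particles at the cell surface, and was the most abundant member per length at 1040 RPKM. It was at 626, 852 and 395 CPM across KO replicates 1 to 3 and 2042, 871 and 849 CPM across WT replicates 1 to 3. Below every WT library were KO replicates 1 and 3, and KO replicate 2 lay just inside the WT range (log2 fold change -1.01, SE 0.50, adjusted p = 0.196). Ifi27l2a (ENSMUSG00000079017.3, chromosome 12, 103442167 to 103443680, minus strand), a small membrane protein gene, followed at 441 RPKM. Its level was 248, 163 and 57.4 CPM in the KO libraries and 395, 173 and 189.9 CPM in the WT libraries, with KO replicate 1 inside the WT range and KO replicates 2 and 3 below it (log2 fold change -0.69, SE 0.56, adjusted p = 0.406).

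The 2′-5′ oligoadenylate synthetases sense double-stranded RNA and make the activator of RNase L, and KO replicate 1 was above every WT library in each of the 5 members. Oasl1 (ENSMUSG00000041827.15, chromosome 5, 114923240 to 114937915, plus strand), which lacks synthetase activity and in the mouse limits translation of Irf7 RNA, was at 96.8, 60.2 and 24.3 CPM across KO replicates 1 to 3 and 33.0, 34.0 and 27.7 CPM across WT replicates 1 to 3. KO replicates 1 and 2 were above every WT library and KO replicate 3 below (log2 fold change 0.94, SE 0.46, adjusted p = 0.194). Its level in KO replicate 1 was 3.07 times the WT mean, the highest such ratio of the 44 genes. With quality weights its log2 fold change was 1.21, adjusted p = 0.0100, and adjusted p ran from 0.0100 to 0.630 over the alternatives. Without KO replicate 3 the value was 1.29, adjusted p = 0.0562, the smallest p of the 30 type I genes in that fit.

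The other members of the family also had KO replicate 3 below every WT library. Oas2 was at 244, 163 and 34.9 CPM in the KO libraries and 72.7, 89.1 and 85.3 CPM in the WT libraries (log2 fold change 0.84, SE 0.60), so that KO replicate 1 stood at 2.96 times the WT mean. Oas3 stood at 185, 181 and 30.1 CPM in the KO libraries and 120.1, 149 and 144 CPM in the WT libraries (log2 fold change -0.055, SE 0.59), and Oasl2 at 385, 464 and 78.5 CPM in the KO libraries and 329, 377 and 340.4 CPM in the WT libraries (log2 fold change -0.17, SE 0.58). Oas1a had 127, 108 and 39.9 CPM in the KO libraries and 111, 78.4 and 77.6 CPM in the WT libraries (log2 fold change 0.043, SE 0.43), and 57.6% of its 50-base windows also occur in transcripts of Oas1g, so its counts are uncertain. KO replicate 2 was above every WT library in each of these genes except Oas1a.

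The Mx and IFIT proteins are direct antiviral effectors, dynamin-like GTPases in the first case and binders of viral RNA ends or translation factors in the second. Mx1 was at 118, 76.5 and 14.4 CPM in the KO libraries and 27.0, 47.5 and 41.5 CPM in the WT libraries (log2 fold change 0.85, SE 0.65), so that KO replicate 1 stood at 3.06 times the WT mean. Mx2 was at 28.3, 29.5 and 5.18 CPM in the KO libraries and 25.3, 21.5 and 24.3 CPM in the WT libraries (log2 fold change -0.17, SE 0.57), with KO replicates 1 and 2 just above the WT libraries. The neighbouring Ifit2, Ifit3, Ifit3b and Ifit1 span chromosome 19 from 34550694 to 34650009.

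Ifit3 (ENSMUSG00000074896.3, chromosome 19, 34583531 to 34588731, plus strand) was among the 5 most abundant type I members per length at 122 RPKM. It stood at 294, 249 and 49.3 CPM across KO replicates 1 to 3 and 294, 189 and 201 CPM across WT replicates 1 to 3. KO replicates 1 and 2 were within the WT range and KO replicate 3 was far below it (log2 fold change -0.21, SE 0.59, adjusted p = 0.821). Of the others, Ifit2 was at 205, 202 and 31.6 CPM in the KO libraries and 114, 168 and 149 CPM in the WT libraries (log2 fold change 0.026, SE 0.61), Ifit1 at 131, 151 and 45.3 CPM in the KO libraries and 149, 122 and 142 CPM in the WT libraries (log2 fold change -0.33, SE 0.44), and Ifit3b at 54.8, 71.9 and 13.4 CPM in the KO libraries and 71.7, 55.3 and 54.6 CPM in the WT libraries (log2 fold change -0.37, SE 0.54). Ifit2 was the only one of the 4 with KO replicate 1 above every WT library. Ifit3 and Ifit3b share 51.2% and 45% of their 50-base windows with other genes, mostly each other, and their separate counts are uncertain.

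Rsad2 and Cmpk2 lie side by side on chromosome 12 and encode viperin, which makes a chain-terminating nucleotide, and a mitochondrial nucleotide kinase. Rsad2 (ENSMUSG00000020641.16, chromosome 12, 26442746 to 26456452, minus strand) was at 129.9, 235 and 45.8 CPM across KO replicates 1 to 3 and 163, 211 and 211 CPM across WT replicates 1 to 3. KO replicate 2 exceeded every WT library while KO replicates 1 and 3 were below (log2 fold change -0.51, SE 0.53, adjusted p = 0.512). Cmpk2 (ENSMUSG00000020638.8, chromosome 12, 26469204 to 26479837, plus strand) was at 77.4, 209 and 21.3 CPM across KO replicates 1 to 3 and 142, 209 and 209.5 CPM across WT replicates 1 to 3, with the same low values of KO replicates 1 and 3 (log2 fold change -0.86, SE 0.69, adjusted p = 0.400). With quality weights their log2 fold changes were -0.90, adjusted p = 0.0217 and -1.62, adjusted p = 0.00315, and adjusted p ran from 0.0217 to 0.849 and from 0.00315 to 0.641 over the alternatives. In both genes the KO libraries spread more widely than the WT libraries.

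The nucleic acid sensors of the arm detect foreign or misplaced RNA and DNA in the cell. Dhx58, which encodes LGP2, was at 130.2, 119 and 20.2 CPM in the KO libraries and 101, 106 and 99.7 CPM in the WT libraries (log2 fold change -0.18, SE 0.59), and Zbp1, a sensor of left-handed nucleic acid that can trigger cell death, at 244, 219 and 60.9 CPM in the KO libraries and 191, 151 and 151 CPM in the WT libraries (log2 fold change 0.088, SE 0.49). Both had KO replicates 1 and 2 above the WT libraries. Ifih1, which encodes MDA5, stood at 87.0, 110.4 and 28.9 CPM in the KO libraries and 79.0, 107 and 106 CPM in the WT libraries (log2 fold change -0.37, SE 0.46), with KO replicate 1 inside the WT range.

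Of the remaining type I members, 3 had KO replicates 1 and 2 above every WT library. Trim30a, a regulator of inflammatory signalling, was at 237, 172 and 92.8 CPM in the KO libraries and 136, 153 and 138 CPM in the WT libraries (log2 fold change 0.24, SE 0.37). Parp14, an ADP-ribosyltransferase, stood at 252, 201 and 83.8 CPM in the KO libraries and 131, 163 and 142 CPM in the WT libraries (log2 fold change 0.30, SE 0.41), and Rtp4, a chaperone of membrane receptors, at 148, 112 and 28.4 CPM in the KO libraries and 109.5, 83.0 and 72.0 CPM in the WT libraries (log2 fold change 0.12, SE 0.54). The others did not have that order. Ifi44 was at 79.4, 96.3 and 13.2 CPM in the KO libraries and 101, 95.4 and 104 CPM in the WT libraries (log2 fold change -0.67, SE 0.61), Xaf1, a cell death factor, at 119.8, 148 and 31.7 CPM in the KO libraries and 205, 126 and 101 CPM in the WT libraries (log2 fold change -0.53, SE 0.55), and Isg20, an RNA exonuclease, at 36.7, 41.8 and 11.9 CPM in the KO libraries and 52.6, 35.4 and 35.4 CPM in the WT libraries (log2 fold change -0.45, SE 0.46).

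**Figure D3:**
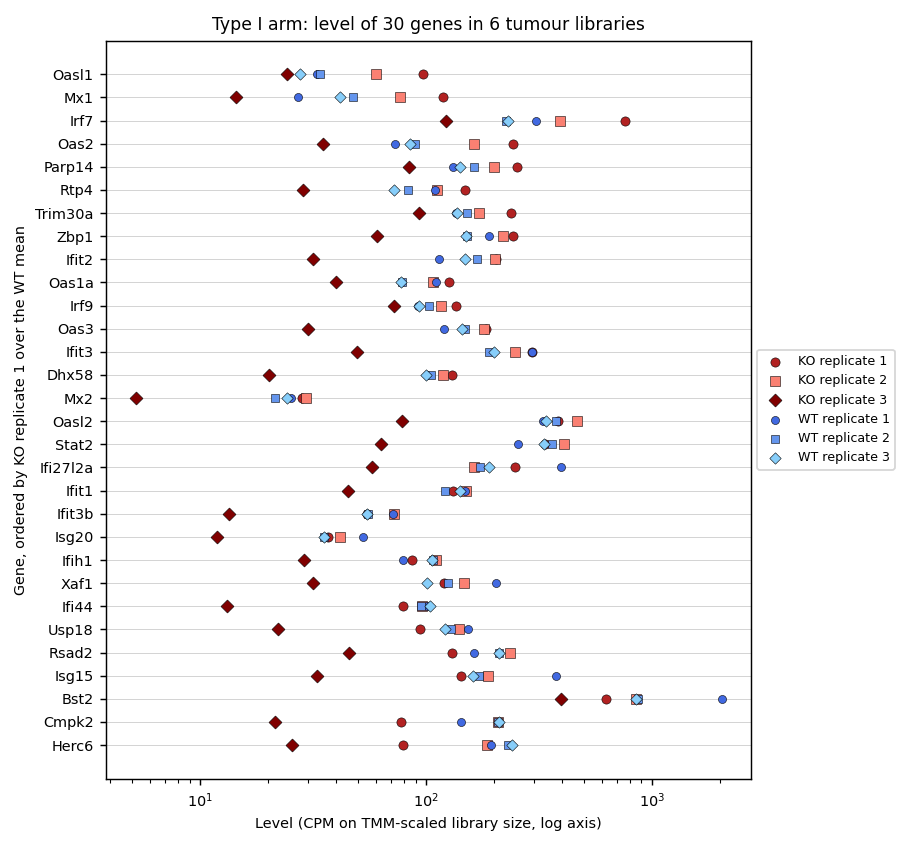
Level of each of the 30 type I genes (horizontal axis, CPM on a log axis) in the 6 libraries, ordered by the ratio of KO replicate 1 to the WT mean; red symbols are KO and blue symbols WT libraries. KO replicate 3 is the leftmost point in all 30 rows, and KO replicate 1 moves from below the WT points for Herc6 to above them for Oasl1.

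The gamma arm opens with its transcription factor and its feedback inhibitor, whose values in KO replicate 3 lay nearest to WT of the arm. Irf1, whose GAS core is printed above, was at 269, 303 and 165 CPM across KO replicates 1 to 3 and 359.6, 266 and 213 CPM across WT replicates 1 to 3 (log2 fold change -0.19, SE 0.35). KO replicates 1 and 2 were inside the WT range, and KO replicate 3 was at 0.591 of the WT mean. Of its exon bases 20% overlap the gene Gm17334 on the other strand, and the library method does not mark strand. Socs1, which blocks JAK kinases, was at 60.3, 76.9 and 34.6 CPM in the KO libraries and 62.7, 60.8 and 39.5 CPM in the WT libraries and was the only gamma member with a log2 fold change above 0 (log2 fold change 0.077, SE 0.35).

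The guanylate-binding proteins are large GTPases that attack vacuoles and membranes of intracellular pathogens. Gbp2 (ENSMUSG00000028270.12, chromosome 3, 142620602 to 142638008, plus strand) had a mean of 226 RPKM and was at 329.7, 759 and 108 CPM across KO replicates 1 to 3 and 834, 772 and 615 CPM across WT replicates 1 to 3. The level in KO replicates 1 and 3 was below every WT library and in KO replicate 2 inside the WT range (log2 fold change -0.89, SE 0.63, adjusted p = 0.342). Gbp3 (ENSMUSG00000028268.14, chromosome 3, 142560026 to 142573209, plus strand), at 116 RPKM, had 222, 486 and 51.8 CPM across KO replicates 1 to 3 and 550.4, 517 and 437 CPM across WT replicates 1 to 3, with the libraries in a like order (log2 fold change -0.99, SE 0.68, adjusted p = 0.331). With quality weights both passed the threshold, at log2 fold changes of -1.31, adjusted p = 0.00865 and -1.43, adjusted p = 0.00933. That fit called 25.5% of all genes tested lower. Over the alternatives adjusted p ran from 0.00865 to 0.576 for Gbp2 and from 0.00933 to 0.554 for Gbp3. Without KO replicate 2, Gbp2 and Gbp3 had log2 fold changes of -1.77, adjusted p = 0.0323 and -1.88, adjusted p = 0.0436.

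Gbp7 (ENSMUSG00000040253.15, chromosome 3, 142530342 to 142550149, plus strand) was at 125, 193 and 50.8 CPM across KO replicates 1 to 3 and 129, 214 and 195 CPM across WT replicates 1 to 3. KO replicate 1 was just under the lowest WT library and KO replicate 2 inside the WT range (log2 fold change -0.55, SE 0.48, adjusted p = 0.437, and -0.89, adjusted p = 0.0166 with quality weights, where adjusted p over the alternatives ran from 0.0166 to 0.740). Its exons share 11.3% of their bases with the gene model Gm43802. Gbp5, which also promotes inflammasome activity, was at 105, 182 and 32.4 CPM in the KO libraries and 126, 152 and 147 CPM in the WT libraries (log2 fold change -0.41, SE 0.54). Gbp4 was at 222, 367 and 52.9 CPM in the KO libraries and 324, 337 and 254 CPM in the WT libraries (log2 fold change -0.51, SE 0.60). Gbp6 was at 131, 183 and 16.2 CPM in the KO libraries and 137, 177 and 180 CPM in the WT libraries (log2 fold change -0.59, SE 0.71), and 70.7% of its 50-base windows occur in other genes, mainly Gm43302 and Gbp10, so its counts are uncertain. In Gbp4, Gbp5 and Gbp6 KO replicate 2 was above every WT library and KO replicate 1 below every one.

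Immunity-related GTPases act on the vacuoles of parasites and bacteria, the regulatory members Irgm1, Irgm2 and Igtp by guarding the cell's own membranes. Igtp (ENSMUSG00000078853.8, chromosome 11, 58199556 to 58207591, plus strand) was the most abundant gamma member per length at 311 RPKM. Its level was 303, 779.5 and 68.9 CPM across KO replicates 1 to 3 and 1115, 768 and 735 CPM across WT replicates 1 to 3. KO replicates 1 and 3 were at 0.347 and 0.0790 of the WT mean, and KO replicate 2 was inside the WT range (log2 fold change -1.18, SE 0.75, adjusted p = 0.290). Irgm1 (ENSMUSG00000046879.7, chromosome 11, 48861968 to 48871683, minus strand), at 113 RPKM, had 314, 852 and 95.4 CPM across KO replicates 1 to 3 and 982, 909 and 799 CPM across WT replicates 1 to 3, with the KO libraries in the same order (log2 fold change -1.09, SE 0.69, adjusted p = 0.292).

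With quality weights the log2 fold changes were -1.64, adjusted p = 0.00580 for Igtp and -1.68, adjusted p = 0.00279 for Irgm1, and over the alternatives adjusted p ran from 0.00580 to 0.534 and from 0.00279 to 0.546. Without KO replicate 2 the values were -2.24, adjusted p = 0.0318 and -2.14, adjusted p = 0.0200. Irgm2 (ENSMUSG00000069874.7, chromosome 11, 58199618 to 58222782, plus strand), at 73.0 RPKM, stood at 211, 391 and 59.0 CPM across KO replicates 1 to 3 and 279, 337 and 339.9 CPM across WT replicates 1 to 3. KO replicate 2 was above every WT library, unlike in Igtp and Irgm1, and KO replicates 1 and 3 were below (log2 fold change -0.53, SE 0.59, adjusted p = 0.543, and -0.96, adjusted p = 0.0304 with quality weights, where adjusted p over the alternatives ran from 0.0304 to 0.875). Igtp and Irgm2 overlap in 162 exon bases, where reads of the 2 genes cannot be told apart.

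The effector GTPases of the family, which coat the parasite vacuole, had lower levels per length than the regulatory members, at 23.3 to 45.4 RPKM against 73.0 to 311 RPKM. Tgtp1 (ENSMUSG00000078922.9, chromosome 11, 48985327 to 48994172, minus strand) was at 54.2, 131 and 5.48 CPM across KO replicates 1 to 3 and 97.4, 132 and 121 CPM across WT replicates 1 to 3. KO replicate 2 was inside the WT range, and KO replicate 3 stood at 0.0470 of the WT mean, the lowest ratio of the 44 genes (log2 fold change -0.87, SE 0.85, adjusted p = 0.486, and -1.64, adjusted p = 0.0169 with quality weights, where adjusted p over the alternatives ran from 0.0169 to 0.681). Tgtp2 was at 69.2, 99.8 and 12 CPM in the KO libraries and 42.5, 97.5 and 89.5 CPM in the WT libraries (log2 fold change -0.34, SE 0.68). They share 81.2% and 86.6% of their 50-base windows with other genes, mostly each other. The rule for multi-mapped reads is not given, so both their levels per length and the split of reads between them are uncertain. Iigp1 was at 258, 377 and 46.9 CPM in the KO libraries and 259.6, 343 and 301 CPM in the WT libraries (log2 fold change -0.41, SE 0.64), with KO replicate 2 above the WT libraries and KO replicate 1 just below them.

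**Figure D4:**
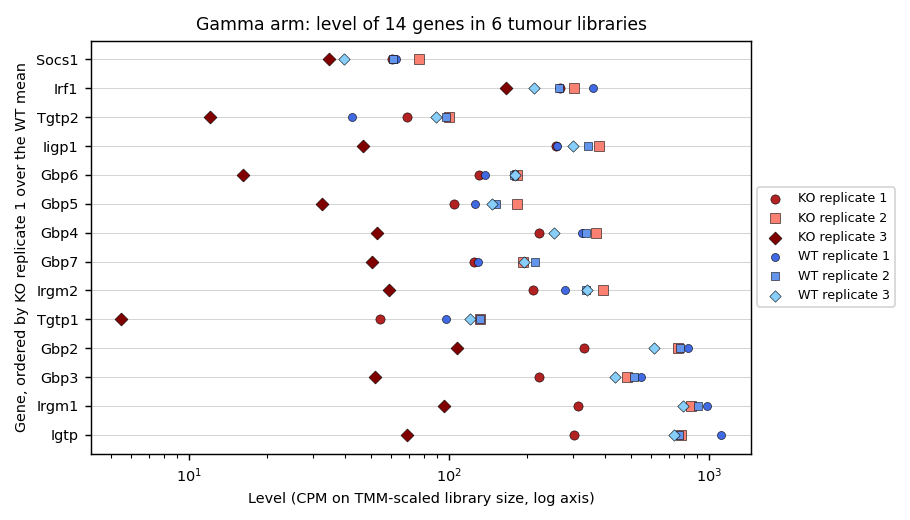
Level of each of the 14 gamma genes (horizontal axis, CPM on a log axis) in the 6 libraries, ordered by the ratio of KO replicate 1 to the WT mean; red symbols are KO and blue symbols WT libraries. KO replicate 3 is the leftmost point in all 14 rows, and KO replicate 1 is never right of the highest WT point.

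The interferons and their receptors were then read beside the members. Counts of the 19 type I and lambda interferon genes in the table were near 0: they summed to 5, 13 and 0 across KO replicates 1 to 3 and to 13, 11 and 12 across WT replicates 1 to 3. Ifnb1, which encodes interferon beta, had 3, 6 and 0 counts in KO and 11, 0 and 7 counts in WT and was too low to test. A count of 0 allows up to 3 counts, which was 0.0820 to 0.150 CPM in these libraries. Ifng, which encodes interferon gamma, was measurable at 10.2, 7.86 and 5.83 CPM across KO replicates 1 to 3 and 5.96, 2.65 and 1.93 CPM across WT replicates 1 to 3. KO replicate 3 lay just below WT replicate 1, so the groups overlapped (log2 fold change 1.18, SE 0.52, adjusted p = 0.161). KO replicate 1 had the highest Ifng of the 6 libraries. Gamma members were below the WT range there in 11 of 14 cases, beside 40.0% of all genes tested. With no composition scaling it was 8 of 14 cases, beside 7867 of 18621 genes. The same library had the highest sums of T cell and NK cell markers, at 859 and 453 CPM. A link among these values was not tested.

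The receptor chains were above every WT library in KO replicate 3, where all members were below. Of all genes tested 39.6% were above every WT library there. Ifngr1, the ligand-binding chain for interferon gamma, was at 251, 90.8 and 228 CPM across KO replicates 1 to 3 and 53.9, 42.8 and 45.6 CPM across WT replicates 1 to 3 (log2 fold change 2.0, SE 0.41, adjusted p = 0.0272). Ifngr2, its partner chain, was at 129.9, 57.9 and 196 CPM in the KO libraries and 42.9, 32.7 and 30.2 CPM in the WT libraries (log2 fold change 1.86, SE 0.44, adjusted p = 0.0373). Both rose in KO with no overlap between the groups, beside 44.1% of all genes tested without overlap in either direction. Ifngr2 missed the threshold with limma-voom. Both missed it without KO replicate 3 (1.82, adjusted p = 0.0587 and 1.38, adjusted p = 0.0867).

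Ifnar1 and Ifnar2, the chains of the type I receptor, were also above WT in each KO library without passing the test. Ifnar1 was at 130.1, 90.1 and 87.3 CPM in the KO libraries and 64.2, 62.3 and 66.3 CPM in the WT libraries (log2 fold change 0.67, SE 0.26, adjusted p = 0.126). Ifnar2 was at 149, 67.6 and 170.4 CPM in the KO libraries and 60.7, 40.7 and 37.4 CPM in the WT libraries (log2 fold change 1.48, SE 0.40, adjusted p = 0.0520). Il10rb, a chain of the lambda interferon and IL-10 receptors, was at 139.7, 50.4 and 197 CPM in the KO libraries and 21.4, 27.1 and 24.9 CPM in the WT libraries (log2 fold change 2.40, SE 0.48, adjusted p = 0.0261) and was singled out after its values were seen. Of 7 tested interferon and receptor genes 3 were called higher, these being Il10rb and the 2 IFNGR chains, and none lower, beside 11.2% higher over all genes tested.

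**Figure D5:**
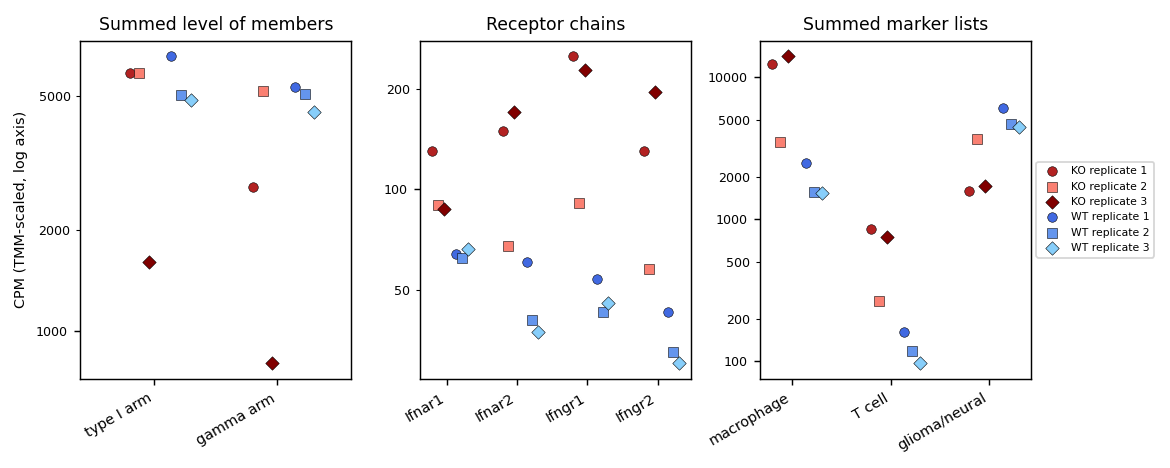
Level in each library (vertical axes, CPM on log axes) of the summed members of each arm (left), of the 4 interferon receptor chains (middle) and of 3 summed marker lists (right); red symbols are KO and blue symbols WT libraries. KO replicate 3 is the lowest point in both member sums, above the WT points for every receptor chain, and high in the macrophage and T cell lists.

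Downstream of the receptors, the Janus kinases stood above WT in KO replicate 3, where all members were below. Over the 12 signalling genes, 7 were above and 5 below every WT library in KO replicate 3, beside 39.6% and 41.7% of all genes tested. Jak1 was at 219, 126 and 203 CPM in the KO libraries and 65.4, 91.0 and 91.2 CPM in the WT libraries (log2 fold change 1.15, SE 0.32, adjusted p = 0.0554). Jak2 was at 104, 75.5 and 84.6 CPM in the KO libraries and 47.8, 59.2 and 62.3 CPM in the WT libraries (log2 fold change 0.64, SE 0.25, adjusted p = 0.132), and Tyk2 at 118, 65.9 and 59.0 CPM in the KO libraries and 32.1, 49.3 and 50.9 CPM in the WT libraries (log2 fold change 0.88, SE 0.35, adjusted p = 0.135). Each kinase was above every WT library in all 3 KO libraries, and none passed the test. Groups did not overlap in either direction for 44.1% of all genes tested.

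In the signalling list 2 of 12 genes were called higher, beside 11.2% of all genes tested, and both were singled out after their values were seen. They were Ptpn6, which encodes the phosphatase SHP-1 of inhibitory receptors (log2 fold change 1.58, SE 0.35, adjusted p = 0.0309), and Irf2, a repressor of IRF1 targets (log2 fold change 1.07, SE 0.28, adjusted p = 0.0475). Both calls were lost without KO replicate 3 (1.59, adjusted p = 0.0599 and 0.94, adjusted p = 0.123). Irf2 also missed the threshold in 4 of the other fits with all libraries, those with limma-voom, RLE scaling, no composition scaling and no low-count filter.

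Sensing genes, which act upstream of interferon production, had 6 of 18 called higher and none lower, beside 11.2% of all genes tested called higher. They were Ikbke, a kinase that activates IRF3 and IRF7 (log2 fold change 2.39, SE 0.44, adjusted p = 0.0246), Tlr7, an endosomal receptor for single-stranded RNA (log2 fold change 2.65, SE 0.50, adjusted p = 0.0246), its adaptor Myd88 (log2 fold change 1.32, SE 0.29, adjusted p = 0.0307), the factors Irf5 (log2 fold change 1.94, SE 0.40, adjusted p = 0.0274) and Irf8 (log2 fold change 1.72, SE 0.41, adjusted p = 0.0373), and the nucleotide hydrolase Samhd1 (log2 fold change 1.39, SE 0.35, adjusted p = 0.0441). Tlr7 stood at 78.8, 22.8 and 55.3 CPM in the KO libraries and 5.41, 8.80 and 10.7 CPM in the WT libraries, with no overlap between the groups. Macrophages and dendritic cells express several of these genes, and the summed macrophage markers given above were also higher in each KO library; their part in these calls was not tested. Without KO replicate 3 the calls of Irf5 (1.69, adjusted p = 0.0593), Irf8 (1.59, adjusted p = 0.0872), Myd88 (1.28, adjusted p = 0.0688) and Samhd1 (1.40, adjusted p = 0.0819) were lost at log2 fold changes close to those with all libraries. Irf8 and Samhd1 also missed the threshold with limma-voom, and Samhd1 with RLE scaling and with no composition scaling. Without KO replicate 1 or any 1 WT library edgeR called no gene of the transcriptome, with 3096 to 3982 genes higher at an unadjusted p under 0.05.

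Few of the other interferon-inducible genes were called. Of 49 other type I genes 3 were called higher: Ifi207, a DNA-binding PYHIN protein (log2 fold change 2.22, SE 0.36, adjusted p = 0.0246), Slfn5, a Schlafen family protein (log2 fold change 2.25, SE 0.38, adjusted p = 0.0246), and the nuclear body protein Sp100 (log2 fold change 1.33, SE 0.31, adjusted p = 0.0347). Sp100 missed the threshold with no composition scaling and without KO replicate 3 (1.36, adjusted p = 0.0645). The median log2 fold change of these 49 was 0.11. Of 30 other gamma genes 1 was called higher, Serping1, which encodes the C1 inhibitor of complement (log2 fold change 2.28, SE 0.52, adjusted p = 0.0336), and the median was -0.35. The low place of KO replicate 3 was not confined to the 44 members: 33 of the 49 and 21 of the 30 were below every WT library there, beside 41.7% of all genes tested. Over all 5 lists 15 of 116 tested genes (12.9%) were called higher, a share close to that of all genes tested. None was called lower by edgeR, with 3 lower at an unadjusted p under 0.05, and DESeq2 called 2 lower of 127 such genes.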

How the data were processed

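The authors deposited raw read counts per gene for 6 libraries, with merged exon lengths, in a table laid out like featureCounts output (per the file headers). The submitters' processing notes name build mm10 and the tool DESeq2. Which aligner, annotation, strand setting and rule for multi-mapped reads were used is not given in the sources used here. Smart-seq2 does not mark strand, so overlapping genes on either strand cannot be told apart. The labels give a subcutaneous tumour as tissue and brain as source; the tissue entry was followed.

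The main test was edgeR 4.0.16 (quasi-likelihood F test, two-sided, TMM, filterByExpr, group as the only term, R 4.3.3), with Benjamini-Hochberg adjustment over 18621 genes and a threshold of 0.05. SE is the size of the log2 fold change over the root of F. Levels are TMM-scaled CPM, and RPKM divides them by exon length. Alternatives were DESeq2 1.42.0, limma-voom (limma 3.58.1) with and without quality weights, RLE or no composition scaling, no or a stricter low-count filter (1 CPM in every library of a group), another prior count, and each library left out. Scripts were tested on simulated data.

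Library totals of 24369359 to 40574093 counts put 3 counts at 0.0820 to 0.150 CPM; this limit covers counting error only. No pair of libraries agreed within sampling noise. Replicate numbers follow accession order and pair nothing, and no label says that samples are separate animals, so p-values measure only the spread among these libraries, which may be partly technical.

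The members and lists were chosen with earlier results of these data known. Members with full statistics were those past the threshold in any fit with all 6 libraries, those with groups that did not overlap, and the 5 of highest level per length in each arm. Receptors, Ifng, Ifnb1 and the kinases were named by rule, as were up to 6 called genes of the sensing and other lists. Exon overlaps were computed from the exon coordinates in the deposited counts. Shared 50-base windows were computed on GENCODE M21 transcripts, and promoters come from RefSeq on GRCm38.p6. One gene that this rule selects is left out of the text.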

Additional observations from a re-analysis of the deposited data

How the results depend on the processing

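Over all genes tested, edgeR called 2083 higher and 42 lower. DESeq2 called 3353 and 1077, limma-voom 988 higher, and limma-voom with quality weights 5531 and 4749. Lower calls were 24 without composition scaling and 476 with no low-count filter. Leaving out 1 library gave 0 to 4449 higher and 0 to 3629 lower calls. The cause was not tested.

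Members called changed with quality weights (2 type I higher and 3 lower, 7 gamma lower) and without KO replicate 2. Of all genes tested, the first fit called 29.7% higher and 25.5% lower, and the second 22.7% and 18.5%. Leaving out 1 library gave 0 to 2 type I and 0 to 4 gamma members lower. Calls among the 116 other pathway genes were 15 higher and 0 lower. They were 54 and 14 with quality weights and 0 to 32 and 0 to 8 with 1 library left out. Of 127 such genes, DESeq2 called 23 higher and 2 lower, and edgeR with no low-count filter called 1 lower.

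The median of all genes moved from -0.045 to -0.18 without composition scaling; relative to it the arm medians were -0.074 (type I) and -0.44 (gamma), against -0.15 and -0.49 with TMM. With limma-voom the relative medians were -0.51 and -0.91, and with quality weights -0.13 and -0.89.

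With all 6 libraries 7 members changed sign: Ifit2 (-0.061 with DESeq2, -0.39 with limma-voom, -0.15 with quality weights, -0.046 with RLE scaling, -0.059 with no composition scaling), Ifit3 (0.049 with quality weights), Oas1a (-0.039 with DESeq2, -0.097 with limma-voom, -0.022 with RLE scaling, -0.022 with no composition scaling), Rtp4 (-0.15 with limma-voom), Zbp1 (-0.17 with limma-voom), Irf1 (0.013 with quality weights), Socs1 (-0.011 with DESeq2). Leaving out 1 library changed the sign of 20 genes, with ranges of -0.65 to 0.010 for Ifit1, -0.33 to 0.48 for Ifit2, -0.65 to 0.22 for Ifit3, -0.84 to 0.038 for Ifit3b, -0.51 to 0.26 for Mx2, -0.31 to 0.37 for Oas1a, -0.41 to 0.39 for Oas3, -0.60 to 0.26 for Oasl2, -0.028 to 1.15 for Irf7, -0.070 to 0.37 for Irf9, -0.68 to 0.20 for Stat2, -0.37 to 0.53 for Rtp4, -0.58 to 0.26 for Dhx58, -0.27 to 0.47 for Zbp1, -0.15 to 0.50 for Trim30a, -0.071 to 0.62 for Parp14, -0.38 to 0.022 for Irf1, -0.21 to 0.31 for Socs1, -1.0 to 0.052 for Iigp1, -0.92 to 0.12 for Tgtp2. No paired analysis was possible because the labels give no replicate numbers. At this depth every member had enough counts, and the intervals, not counting error, limit the comparison.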
